A study of Homo sapiens with 6 samples.

Results

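Cells of the line TCam-2 transduced with RBMXL3_FLAG were compared with TCam-2 cells that had not been transduced, and 12616 of the 62700 genes in the deposited table were followed through that comparison. TCam-2 is an established human line from a testicular tumour, a seminoma. The cells with the FLAG-tagged RBMXL3 are called RBMXL3 here and those without transduction are called WT, as their genotype label has it. A further group, transduced with GFP_FLAG and called GFP, shows which part of a difference a transduced control already had against WT. Each of the 3 groups had 2 libraries of polyadenylated RNA, made with a stranded mRNA kit from RNA isolated on columns and freed of DNA. All groups shared the cell line and the medium, RPMI with serum and antibiotics. The vector, the promoter of the transgenes and whether the transduced cells were 1 clone or a pool are not given in the sources used here. Nothing in the labels says that the 2 replicates of a group came from separate cultures, so the p-values measure only the spread between these samples, which may be technical.

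A gene was kept when its normalised read count was at least 50 in at least 2 of the 4 RBMXL3 and WT libraries. Of the 12616 genes, 247 were kept through the 2 RBMXL3 libraries alone and 114 through the 2 WT libraries alone. These genes had to differ between the groups to be kept through one of them, and the other 12255 did not.

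RBMXL3 is an intronless relative of RBMX on the X chromosome, and RBMX encodes hnRNP G, a nuclear RNA-binding protein that takes part in splicing. Seminoma cells keep much of the identity of primordial germ cells, with the transcription factors SOX17, TFAP2C, PRDM1 and POU5F1 active and SOX2 silent. A control that carries an unrelated protein shares the transduction with the cells under study, but not the protein.

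The recovered depth was 17685680 and 21023355 reads in RBMXL3, 29318007 and 28604436 in WT, and 26776703 and 23080795 in GFP, so the RBMXL3 libraries were the shallowest. Replicates differed by a median of 0.07 in RBMXL3, 0.12 in WT and 0.18 in GFP, as the absolute log2 difference of a gene. Transcripts of the mitochondrial genome took 2.02% to 3.02% of the reads, except in GFP replicate 1, where they took 1.31%. The RBMXL3 gene itself (chromosome X, 115189427 to 115192868, plus strand, GRCh38) had 0 reads in all 4 WT and GFP libraries and normalised read counts of 108 and 72.7 in RBMXL3, which fits the labels. A count of 0 allows up to 3 reads, or normalised counts of up to 2.54 and 2.52 in WT and 2.77 and 3.18 in GFP. The defining markers of the line went with its label: POU5F1 stood between 27460.0 and 41233, NANOG between 16054 and 20173, TFAP2C between 22434 and 32067 and SOX17 between 3169.8 and 4189 in the 6 libraries, whereas SOX2 stood between 11.7 and 34.2.

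In RBMXL3 against WT, 1920 of the 12616 genes rose and 2086 fell, which is 15.2% and 16.5% of them. Over all 14292 genes that entered the test, 14.6% were called higher and 15.3% lower, so the kept genes were called about as often as the whole table. A gene was called at an adjusted p under 0.05 in limma, with Benjamini-Hochberg adjustment over all 14292 genes, and changes are on the log2(value + 1) scale of values rescaled by 1 common factor to a mean total like that of CPM, which understates the change of low genes. Among the 12255 genes that neither group alone had kept, 1755 rose and 2014 fell. The changes were mostly small: the median absolute log2 change of the called genes was 0.51, while 176 genes rose and 84 fell by at least 1. The split between rises and falls depends on the scaling: with every library set to the same total, 2755 genes rose and 1225 fell, since this moved the median change of all members from -0.02 to 0.08. With 1 library left out, the rises ranged from 734 (without RBMXL3 replicate 2) to 2683 (without GFP replicate 2) and the falls from 608 to 3156 without the same libraries, and each of the 6 libraries moved at least 1 of the counts by over 1.5 times. Counts within gene lists move with them, and the range is given for some lists only. Most falls of the ribosome biogenesis, proteasome, DNA replication, mitosis and hnRNP lists were no longer called without either RBMXL3 replicate. The medians of these lists stayed below 0 with any 1 library left out. Every list count against WT stands beside the 14.6% higher and 15.3% lower of all genes tested. A list near these shares does not stand out from the whole table. Directions below that flip under such a scaling are named as they come up.

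The 12 largest rises among well-measured protein-coding genes were led by FOS, a component of the AP-1 transcription factor (chromosome 14, 75278774 to 75282230, plus strand). Its normalised read counts were 89.7 and 102 in WT, 121 and 112 with GFP and 936 and 793 with RBMXL3. Both RBMXL3 libraries stood far above the other 4, and the GFP libraries lay close to WT. The mean went from 96.0 ± 8.91 to 865 ± 101 (SD, n = 2 each), a log2 change of 2.89 with a standard error of 0.14 and an adjusted p of 1.59e-07. In GFP against WT the log2 change of FOS was 0.23 (adjusted p = 0.35).

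Most of the other large rises came in steps, with the GFP libraries between WT and RBMXL3. LUM, which encodes the collagen-binding proteoglycan lumican, had normalised read counts of 79.6 and 65.4 in WT, 131 and 179 with GFP and 425 and 421 with RBMXL3. The 3 groups did not overlap, and the log2 change was 2.22 against WT (adjusted p = 3.72e-06), of which GFP showed 0.88 (adjusted p = 0.0163). CD70, a ligand of the TNF family, gave 102 and 102 in WT, 311 and 277 with GFP and 456 and 473 with RBMXL3. The GFP libraries were nearer to RBMXL3 than to WT, with log2 changes of 1.95 for RBMXL3 and 1.33 for GFP against WT (adjusted p = 2.54e-06 and 0.00107). CGA, the common alpha subunit of the glycoprotein hormones, had 42.3 and 17.6 in WT, 135 and 115 with GFP and 169.9 and 292 with RBMXL3. It was low in both WT libraries and highest in RBMXL3 replicate 2, and its log2 changes were 2.24 and 1.5 (adjusted p = 8.84e-05 and 0.0132). CGA was kept through the RBMXL3 libraries alone, so a difference from WT was required of it and its p-value against WT adds nothing.

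MRC2, a receptor that takes up collagen, had normalised read counts of 345 and 411 in WT, 627 and 635 with GFP and 1573 and 1450.0 with RBMXL3. The groups were again apart, with log2 changes of 1.94 for RBMXL3 and 0.71 for GFP against WT (adjusted p = 9.26e-07 and 0.0132). PCK2, the mitochondrial phosphoenolpyruvate carboxykinase, had 305 and 357 in WT, 698 and 577 with GFP and 1356 and 1299 with RBMXL3. Its log2 change was 1.93 (adjusted p = 2.03e-06) and 1.04 of it remained against GFP (adjusted p = 4.17e-04). TMPRSS4, a membrane serine protease, differed from this pattern, with 157 and 152 in WT, 236 and 175 with GFP and 624 and 571 with RBMXL3. Its RBMXL3 libraries stood well above the other 4, and it rose by 1.80 against WT (adjusted p = 1.24e-05) while GFP against WT gave 0.35 (adjusted p = 0.185).

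The remaining 5 of these 12 rises lay between log2 changes of 1.63 and 1.86 against WT. They were COL3A1, a fibrillar collagen chain, BIN1, which encodes a membrane-bending adaptor, CSF3R, the receptor of granulocyte colony-stimulating factor, EPAS1, the oxygen-regulated transcription factor HIF-2 alpha, and CRABP2, which carries retinoic acid to its nuclear receptors. EPAS1, for one, had 329 and 301 in WT, 595 and 523 with GFP and 1021 and 1054 with RBMXL3. The GFP libraries of these genes lay between WT and RBMXL3, and GFP against WT was called, at log2 changes between 0.65 and 0.78. Over all genes tested, 1.76% were called higher in GFP against WT. The 12 rises, and the falls below, were picked for size with RBMXL3 outside WT. How many of all genes step in this way was not counted.

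Among the 12 largest falls, BEST1, which encodes a calcium-activated chloride channel, came first (chromosome 11, 61949821 to 61965515, plus strand). Its normalised read counts were 438 and 334 in WT, 242 and 463 with GFP and 55.4 and 56.7 with RBMXL3. Both RBMXL3 libraries were far below all others, while the 2 GFP libraries spanned the WT values. The log2 change was -2.35 against WT (adjusted p = 4.02e-05) and -0.18 for GFP (adjusted p = 0.685). In TPM summed over transcripts BEST1 was not lower, with 0.530 and 0.753 in WT and 0.718 and 0.956 with RBMXL3, too low to be tested there, so its fall rests on the gene counts. FBN2, a microfibril protein of the extracellular matrix, behaved alike, with 563 and 677 in WT, 638 and 389 with GFP and 193 and 206 with RBMXL3. GFP replicate 1 stood within the WT range and GFP replicate 2 below it, and the log2 changes were -1.52 for RBMXL3 (adjusted p = 1.66e-04) and -0.30 for GFP (adjusted p = 0.363).

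The other large falls had GFP between the groups. ALCAM, a cell adhesion molecule of the immunoglobulin superfamily, had normalised read counts of 634 and 494 in WT, 297 and 277 with GFP and 167 and 157 with RBMXL3. Both GFP libraries were near the middle and no group overlapped another, at log2 changes of -1.65 and -0.91 (adjusted p = 1.73e-05 and 0.0118). KCNIP4, a partner of voltage-gated potassium channels, had 657 and 640.1 in WT, 263 and 368 with GFP and 152 and 153 with RBMXL3. The GFP libraries were again between the other groups, with -1.93 and -1.0 (adjusted p = 7.04e-06 and 0.011). ENC1, an actin-binding protein first described in neurons, was the most abundant of these genes, with 2723 and 2740.0 in WT, 1995 and 2004 with GFP and 1087 and 1077 with RBMXL3. Its replicates lay close together in every group, and the log2 change was -1.32 against WT (adjusted p = 3.10e-06) and -0.45 in GFP (adjusted p = 0.0272).

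RND3, which lowers actomyosin tension, SERPINB4, a serine protease inhibitor, CNTN1, a neural adhesion protein, EFNA5, a membrane-bound ephrin ligand, TAGLN, an actin-binding protein of contractile cells, OSMR, the oncostatin M receptor, and COL14A1, a fibril-associated collagen, made up the rest. Their log2 changes lay between -1.89 and -1.38 against WT, all with adjusted p-values of at most 1.51e-04. OSMR, for one, had 706 and 643 in WT, 470.4 and 412 with GFP and 251 and 237 with RBMXL3. GFP against WT was called for RND3, EFNA5, OSMR and COL14A1, at log2 changes between -0.84 and -0.58, and not for SERPINB4, CNTN1 or TAGLN (adjusted p = 0.065, 0.112 and 0.0714).

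**Figure D1:**
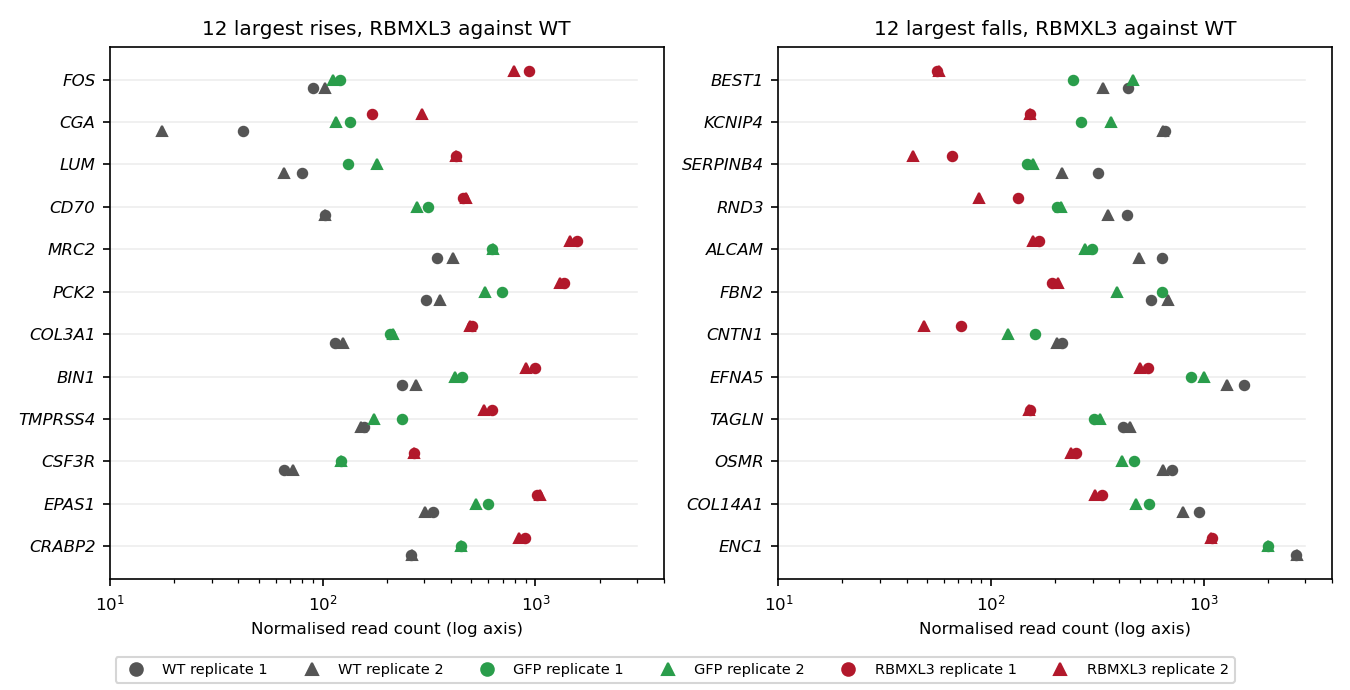
Normalised read counts, on a log axis, of the 12 largest rises (left) and the 12 largest falls (right) in RBMXL3 against WT, with 1 point per library (2 each in WT, GFP and RBMXL3; circles are replicate 1 and triangles replicate 2). The GFP libraries of most genes lie between WT and RBMXL3, whereas those of FOS lie next to WT and those of BEST1 and FBN2 reach into the WT values.

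The comparison with GFP split the called genes into a part that the transduced control already showed and a part that it did not. GFP against WT called far fewer genes: 237 of the 12616 rose and 269 fell, beside 1.76% higher and 1.91% lower of all genes tested. At such shares a short list can hold 0 calls in GFP against WT without differing from the whole table. RBMXL3 against GFP called 1433 higher and 1405 lower, beside 10.5% and 10.4% of all genes tested. The comparisons with WT share the 2 WT libraries and those with RBMXL3 share the 2 RBMXL3 libraries, so they are not independent and their values are given side by side.

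Of the 1920 genes that rose in RBMXL3 against WT, 160 (8.33%) also rose in GFP against WT, and 102 of these were not called in RBMXL3 against GFP while 56 rose again. A further 889 (46.3%) were not called in GFP against WT and rose in RBMXL3 against GFP. Almost all of the remaining genes, 870 (45.3%), were called neither in GFP against WT nor in RBMXL3 against GFP. The lack of a call does not place their GFP values between the other groups. Over all 1920 the median log2 change was 0.56 for RBMXL3 against WT, 0.19 for GFP against WT and 0.39 for RBMXL3 against GFP. The 2086 falls were divided in much the same way: 158 (7.57%) also fell in GFP against WT, 904 (43.3%) fell against GFP only, and 1020 (48.9%) were called in neither. Their medians were -0.47, -0.17 and -0.33. Looked at from the control, 160 of the 237 GFP rises (67.5%) and 158 of the 269 GFP falls (58.7%) were called the same way in RBMXL3. These counts move strongly with the GFP and WT libraries: GFP against WT called between 0 and 1245 rises when 1 library was left out, as set out with the other alternatives.

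Among genes called in both comparisons with WT, the largest GFP rises besides CGA and CD70 were CCKBR, GDF15, PLPPR3 and SNCG. GDF15, a secreted stress-induced cytokine of the TGF-beta superfamily, had normalised read counts of 113 and 87.3 in WT, 208 and 273 with GFP and 337 and 372 with RBMXL3. The values rose from WT through GFP to RBMXL3 without overlap, with log2 changes of 1.62 for RBMXL3 and 1.09 for GFP against WT (adjusted p = 4.89e-05 and 0.011). CCKBR, the gastrin receptor, had 126 and 133 in WT, 418 and 299 with GFP and 209 and 222 with RBMXL3. Here GFP stood above RBMXL3, and the log2 changes were 0.64 and 1.30 against WT and -0.66 for RBMXL3 against GFP (adjusted p = 0.00975, 0.00434 and 0.0125). PLPPR3, of the phospholipid phosphatase-related family, and SNCG, gamma-synuclein, rose as much in GFP as in RBMXL3, by 1.03 and 1.00 and by 1.03 and 0.94. Their RBMXL3 against GFP differences were -0.03 and -0.09 (adjusted p = 0.913 and 0.772).

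Falls of this kind were LUZP2, a leucine zipper protein, LPP, a focal adhesion protein, and NCR3LG1, the ligand B7-H6 of a natural killer cell receptor, besides KCNIP4, ALCAM and RND3. LPP had normalised read counts of 962 and 1205 in WT, 634 and 556 with GFP and 467 and 483 with RBMXL3. All 4 transduced libraries lay well below WT, with RBMXL3 a little lower than GFP, and the log2 changes were -1.14 for RBMXL3 and -0.83 for GFP (adjusted p = 1.01e-04 and 0.011). LUZP2 gave -0.95 and -0.87, with a difference between the transduced groups of -0.08 (adjusted p = 0.758).

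A set of genes was chosen for calls in RBMXL3 against both WT and GFP, with GFP within 0.1 of WT on the log2 scale. Their calls, and RBMXL3 standing apart from both groups, were thus required of them and add no support. COL9A3, a chain of a cartilage-type collagen, had normalised read counts of 2833 and 2369 in WT, 2088 and 3218 with GFP and 5859 and 6342 with RBMXL3. Both RBMXL3 libraries were above the other 4, among which the GFP libraries spread on both sides of WT. Its log2 changes were 1.23 against WT (adjusted p = 2.80e-04) and 1.23 against GFP (adjusted p = 6.25e-04). JUNB, an AP-1 partner of FOS, had 185 and 133 in WT, 129 and 206 with GFP and 398 and 396 with RBMXL3. WT and GFP overlapped and RBMXL3 stood apart from both, at log2 changes of 1.21 and 1.17 (adjusted p = 7.91e-04 and 0.00184).

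The other rises of this kind were ZNRF2, a ubiquitin ligase, NUDT21, a subunit of the pre-mRNA cleavage factor CFIm, MZT1, a component of the gamma-tubulin complex, and IGFBP2, which binds insulin-like growth factors. They rose by 1.23 to 1.58 against WT, with GFP against WT between -0.06 and 0.08. The rises of ZNRF2, NUDT21 and MZT1 rest on the gene counts: in TPM summed over transcripts their log2 changes were 0.08, -0.16 and 0.22 (1.58, 1.39 and 1.25 in the counts).

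HSPA8, the constitutive HSP70 chaperone of the cytosol, was the most abundant gene that fell in this way, with normalised read counts of 75852 and 67862 in WT, 80638 and 70350.0 with GFP and 38108 and 37531 with RBMXL3. The RBMXL3 libraries stood at about 1 log2 step below all 4 others, and WT and GFP overlapped. Its log2 changes were -0.92 against WT and -0.99 against GFP (adjusted p = 4.30e-04 and 6.25e-04). ADAMTS1, a secreted metalloprotease, had 2035 and 1979.9 in WT, 2062 and 1809.6 with GFP and 1007 and 1013 with RBMXL3. Its replicates agreed closely and only RBMXL3 was low, at -0.97 against WT (adjusted p = 6.43e-05). LRP2, the endocytic receptor megalin, SIAH2, a ubiquitin ligase of the hypoxia response, ZNF813, a zinc finger protein, and VDAC3, a channel of the mitochondrial outer membrane, fell as well, with log2 changes between -1.18 and -0.84 against WT and between -0.06 and 0.01 for GFP against WT.

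The clearest pathway among the rises was the integrated stress response, in which phosphorylation of the initiation factor eIF2 alpha lowers general translation and favours that of the transcription factor ATF4. ATF4 and its partners of the C/EBP family then raise genes of amino acid uptake and synthesis and, further on, of cell death. Of 24 listed genes among the members, 19 rose and 2 fell in RBMXL3 against WT, with a median log2 change of 0.62, beside -0.02 over all members and 14.6% of all tested genes called higher. In GFP against WT 5 rose, with a median of 0.31, and in RBMXL3 against GFP 14 rose, with a median of 0.33. Per library, the median of the list stood at 0.61 and 0.61 in RBMXL3 and at 0.33 and 0.31 in GFP, as the log2 distance from the WT mean. Without NUPR1, which was kept through the RBMXL3 libraries alone, 18 of 23 rose with a median of 0.58. The median stayed above 0 under TMM, quantile and equal-total scaling. Leaving out 1 library in turn kept it between 0.61 and 0.65, and between 14 (without either RBMXL3 replicate) and 20 (without either GFP replicate) of the 24 rose against WT. The count against GFP fell from 14 to 5 and 4 without RBMXL3 replicate 1 and 2, and that of GFP against WT to 0 without either WT replicate and rose to 12 without GFP replicate 2.

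To show the regulatory sequence of genes of this response, the 250 bases upstream of the start of 4 of them, and of FOS for comparison, are given from RefSeq (GRCh38.p14), 5′ to 3′ on the strand of the gene, the last base next to the start site. Capitals mark matches on either strand to TGATGNAA, the letters of a site bound by C/EBP and ATF factors, to TGANTCA, the AP-1 site, to CCAAT, the CCAAT box, and to TATAAA, the TATA box. The windows are chr15:40953221-40953470 for CHAC1, chr1:212565157-212565406 for ATF3, chr12:57520515-57520764 (minus strand) for DDIT3, chr1:28259268-28259517 for SESN2 and chr14:75278578-75278827 for FOS.
CHAC1: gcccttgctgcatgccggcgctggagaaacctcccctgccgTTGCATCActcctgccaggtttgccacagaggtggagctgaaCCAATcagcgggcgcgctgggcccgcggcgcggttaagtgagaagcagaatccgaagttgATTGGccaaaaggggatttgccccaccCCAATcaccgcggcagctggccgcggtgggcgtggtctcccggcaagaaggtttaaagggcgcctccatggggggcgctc
ATF3: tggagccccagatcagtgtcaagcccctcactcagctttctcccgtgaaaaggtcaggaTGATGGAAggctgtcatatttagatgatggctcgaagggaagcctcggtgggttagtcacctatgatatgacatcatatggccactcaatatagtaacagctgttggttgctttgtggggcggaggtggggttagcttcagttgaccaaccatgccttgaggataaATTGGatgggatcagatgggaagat
DDIT3: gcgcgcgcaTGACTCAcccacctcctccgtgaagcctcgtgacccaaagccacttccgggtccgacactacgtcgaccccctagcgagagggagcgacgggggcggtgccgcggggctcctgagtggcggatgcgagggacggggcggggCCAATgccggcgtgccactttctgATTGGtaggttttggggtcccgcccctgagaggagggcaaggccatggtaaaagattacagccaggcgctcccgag
SESN2: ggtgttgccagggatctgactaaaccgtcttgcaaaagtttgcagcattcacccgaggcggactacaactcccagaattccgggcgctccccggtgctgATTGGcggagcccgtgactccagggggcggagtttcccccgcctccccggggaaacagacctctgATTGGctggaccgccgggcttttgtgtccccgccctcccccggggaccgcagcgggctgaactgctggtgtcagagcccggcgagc
FOS: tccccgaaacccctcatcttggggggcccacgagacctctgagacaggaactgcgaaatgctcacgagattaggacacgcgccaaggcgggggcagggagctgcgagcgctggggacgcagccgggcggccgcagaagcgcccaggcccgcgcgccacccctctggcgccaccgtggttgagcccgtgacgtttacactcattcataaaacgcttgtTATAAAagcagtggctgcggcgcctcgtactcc
CHAC1 holds a C/EBP-ATF match that begins 209 bases before the start and CCAAT boxes at 167, 107 and 80 bases. ATF3 holds a C/EBP-ATF match at 191 bases and a CCAAT box at 25 bases. DDIT3 holds an AP-1 match at 241 bases and CCAAT boxes at 100 and 76 bases, and SESN2 holds CCAAT boxes at 151 and 86 bases. FOS holds a TATA box at 33 bases and none of the other motifs in this window. Over the 20 genes of the list with a promoter in the table, 50% held a CCAAT box, beside 35.6% of 9859 member promoters and 33.0% of all 27305 promoters, and 10% held the C/EBP-ATF letters, beside 1.28% and 3.19%. The C/EBP-ATF letters were added to the search after the data had been seen, and 10% of 20 is 2 promoters, CHAC1 and ATF3. A match is only a run of letters and says nothing of binding in these cells.

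Amino acid transporters carried some of the largest changes of the response. SLC1A5, the glutamine transporter, had normalised read counts of 1667 and 1670.3 in WT, 2506 and 2349 with GFP and 4117 and 3994 with RBMXL3. The groups stood in 3 separate steps, with log2 changes of 1.27 for RBMXL3 and 0.53 for GFP against WT (adjusted p = 4.63e-06 and 0.0155). SLC7A11, the cystine and glutamate exchanger, had 436 and 524 in WT, 404 and 492 with GFP and 1042 and 1038 with RBMXL3. Only RBMXL3 was high, and GFP overlapped WT, at log2 changes of 1.08 and -0.10 (adjusted p = 1.49e-04 and 0.693). SLC3A2 and SLC7A5, the 2 chains of the large neutral amino acid transporter, rose by 0.66 and 0.52, whereas SLC7A1, a cationic amino acid transporter, fell, at -0.31 (adjusted p = 0.0397).

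Transcription factors and late effectors of the response moved less evenly. CEBPB, the liver-enriched C/EBP factor, had normalised read counts of 429 and 487 in WT, 605 and 832 with GFP and 1137 and 1134 with RBMXL3. RBMXL3 was above GFP and GFP above WT, with a log2 change of 1.27 against WT (adjusted p = 9.44e-05). The transcript of ATF4 itself was abundant and was not called, with 8433 and 7991 in WT, 9468 and 9927 with GFP and 9563 and 9456 with RBMXL3 and a log2 change of 0.21 (adjusted p = 0.114). In TPM summed over transcripts the change of ATF4 in RBMXL3 against WT was 0.97, so its small change rests on the gene counts. ATF3 rose by 0.50 and DDIT3, which encodes the death-linked factor CHOP, by 0.45 (adjusted p = 0.00718 and 0.0327), while ATF5 fell, at -0.33 (adjusted p = 0.0485). CHAC1, which degrades glutathione, had 229 and 196 in WT, 379.8 and 348 with GFP and 507 and 569 with RBMXL3. Its 3 groups did not overlap, and the log2 changes were 1.25 and 0.72 for RBMXL3 and GFP (adjusted p = 6.43e-05 and 0.0164).

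DDIT4, an inhibitor of mTORC1, was as high in GFP as in RBMXL3, with 629.9 and 699.7 in WT, 1414 and 1126 with GFP and 1176 and 1251 with RBMXL3. The transduced groups overlapped, and the log2 changes were 0.85 for RBMXL3, 0.90 for GFP and -0.06 between them (adjusted p = 4.77e-04, 0.00999 and 0.78). TRIB3, a pseudokinase that restrains ATF4, rose by 0.75, the stress sensor SESN2 by 0.68, the secreted glycoprotein STC2 by 1.24, the transcriptional regulator NUPR1 by 1.21, the mitochondrial folate enzyme ALDH1L2 by 0.98 and the alanine aminotransferase GPT2 by 0.79. ASNS, the asparagine synthetase gene that usually belongs to this response, was below the minimum for members, with 12.7 and 20.1 in WT, 30.5 and 19.1 with GFP and 57.9 and 49.2 with RBMXL3, and shares 44.6% of its exon length with another gene on its strand. ASNS did enter the limma test and was called higher, by 0.95 against WT and 0.68 against GFP (adjusted p = 0.00325 and 0.0248). Its summed TPM was 83.8 and 72.4 in WT, 81.5 and 91.8 with GFP and 140 and 128 with RBMXL3, so its low counts do not show low expression. FGF21 had lower counts still, with 0.847 and 2.52 in WT, 8.32 and 2.12 with GFP and 14.2 and 15.0 with RBMXL3.

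**Figure D2:**
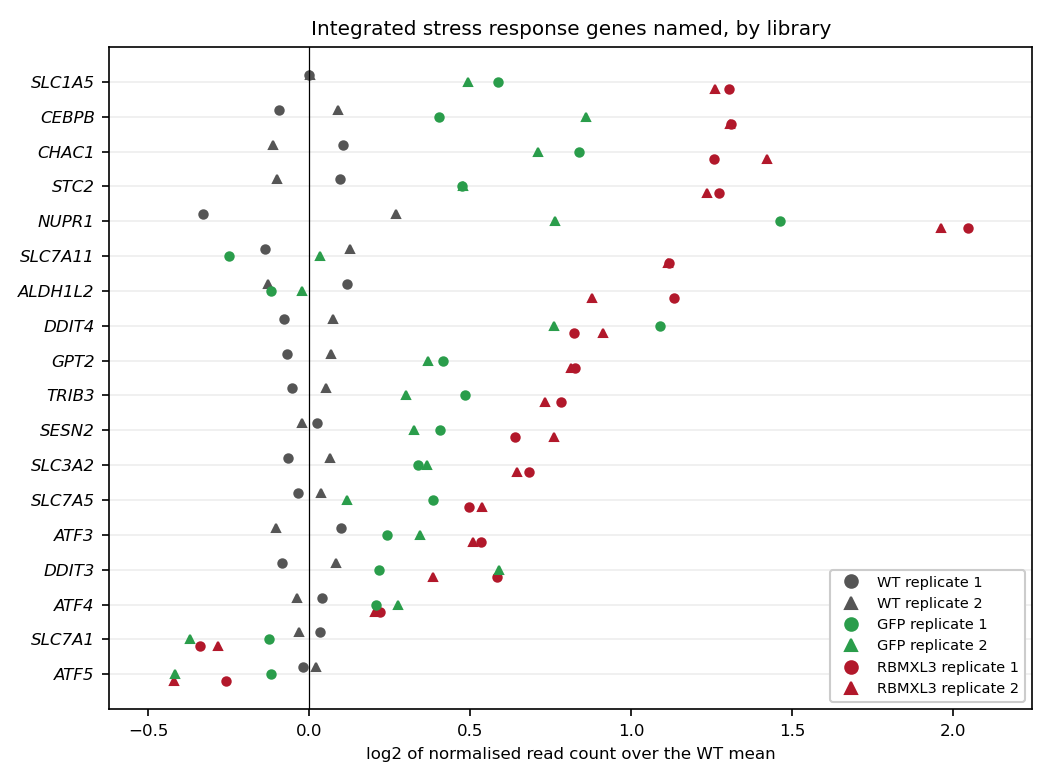
Normalised read counts of the genes of the integrated stress response named in the text, divided by the WT mean on a log2 axis, with 1 point per library (2 each in WT, GFP and RBMXL3). Most genes lie above WT in RBMXL3 with GFP between, while SLC7A11 and ALDH1L2 are high in RBMXL3 alone and ATF5 and SLC7A1 lie below WT.

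Of 26 genes of serine, one-carbon and nucleotide synthesis, 5 rose and 5 fell, with a median log2 change of -0.04 that moved to 0.03 under quantile and 0.07 under equal-total scaling. The rises were led by the serine synthesis enzymes PHGDH (4637 and 4839 in WT, 6613 and 6382 with GFP and 10072 and 9297 with RBMXL3) and PSAT1 and the mitochondrial folate enzymes SHMT2 and MTHFD2, with DHODH of pyrimidine synthesis as the fifth. RBMXL3 was highest and WT lowest for PHGDH, with log2 changes of 1.03 against WT and 0.57 against GFP (adjusted p = 3.16e-05 and 0.00206), and the others rose by 0.83, 0.71 and 0.62. The falls were nucleotide genes and the cytosolic folate enzyme MTHFD1, among them RRM1 and RRM2, the subunits of ribonucleotide reductase (-0.43 and -0.47). Of 20 tRNA synthetase genes, 4 rose and 4 fell, with CARS1 highest (0.61) and WARS1 lowest (-0.66).

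The unfolded protein response, which shares the eIF2 kinase PERK with the integrated stress response, had no called rise among 29 genes and chaperones, and 3 falls, among them the sensor kinase gene EIF2AK3 (-0.40). At an unadjusted p under 0.05 limma put 2 of the 29 higher, and edgeR and DESeq2 also called 0 higher. HSPA5, the chaperone BiP, had a log2 change of -0.19 (adjusted p = 0.257) and XBP1 one of 0.25 (adjusted p = 0.0886).

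Extracellular matrix genes formed the second large group. Of 40 members, 20 rose and 8 fell in RBMXL3 against WT, with a median log2 change of 0.35. In GFP against WT 5 rose (median 0.11), and in RBMXL3 against GFP 11 rose and 4 fell (median 0.16). Of the 20 rises, 5 were also called higher in GFP, 10 were called higher against GFP, and 7 were called in neither. Depending on the library left out, between 11 (without RBMXL3 replicate 1 or WT replicate 1) and 24 (without either GFP replicate) of the 40 rose, and GFP against WT called 0 without either WT replicate.

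Many of the rises were collagen chains, but not every collagen rose. COL14A1, among the largest falls above, had log2 changes of -1.38 for RBMXL3 and -0.73 for GFP against WT. COL3A1, a fibrillar collagen chain, had normalised read counts of 114 and 124 in WT, 207 and 214 with GFP and 503 and 489.8 with RBMXL3. The groups stood apart, with log2 changes of 1.86 and 0.71 for RBMXL3 and GFP against WT (adjusted p = 3.07e-06 and 0.0163). COL6A1, a chain of the beaded-filament collagen VI, had 1727 and 1640.1 in WT, 2008 and 1808 with GFP and 3256 and 3562 with RBMXL3. GFP lay just above WT and RBMXL3 far above both, at 1.01 against WT and 0.83 against GFP (adjusted p = 4.99e-05 and 4.40e-04), and its partner COL6A2 rose by 0.95. COL4A5 and COL4A6, neighbouring chains of basement membrane collagen, rose by 0.95 and 1.05, and COL5A1 and COL5A2, which start fibril assembly, by 1.00 and 1.06.

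The 2 chains of collagen I followed the transduced control. COL1A2 had normalised read counts of 8093 and 9275 in WT, 12709 and 11241 with GFP and 11331 and 12167 with RBMXL3. All 4 transduced libraries lay above WT and overlapped each other, with log2 changes of 0.44 for RBMXL3, 0.46 for GFP and -0.03 between them (adjusted p = 0.0109, 0.0418 and 0.894). In summed TPM the change of COL1A2 in RBMXL3 against WT was 0.03. COL1A1 gave 0.81, 0.65 and 0.16 in the same order.

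The falling matrix genes were mostly glycoproteins. LAMA4, a laminin chain of basement membranes, had normalised read counts of 1645 and 1316 in WT, 1195 and 1001 with GFP and 709 and 696 with RBMXL3. The groups descended from WT through GFP to RBMXL3 without overlap, with a log2 change of -1.04 against WT (adjusted p = 1.66e-04). The microfibril genes FBN2 and FBN1 fell too, at -1.52 and -1.04, as did the thrombospondin THBS1 (-1.07) and the collagen-binding protein SPARC (-0.41).

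Because collagen genes also mark fibroblasts, the marker list of that cell type is given beside them. Of 11 fibroblast markers 6 were members, and 4 of them rose in RBMXL3 and 5 in GFP against WT. LUM, COL3A1, COL1A1 and COL1A2 are themselves on this list. Its summed normalised read count was 10760.0 and 11980.0 in WT, 16900.0 and 14650.0 with GFP and 15400.0 and 16300.0 with RBMXL3, and the part of other cells in the collagen result was not tested. In such bulk RNA, fewer cells of a type and less RNA per cell cannot be told apart. Of the blood list 1 gene was a member and CD3E and MS4A1 had 0 reads in all 6 libraries, with a summed level of 41.5 and 48.7 in WT and 90.1 and 93.0 with RBMXL3. The endothelial list had 2 members, 1 of them called lower, EMCN at 0 reads and a summed level of 658 and 654 in WT and 434 and 513 with RBMXL3. The Sertoli and Leydig list had CYP17A1 at 0 reads and 3 members, of which 2 rose (median 0.60), and its summed level was 235 and 296 in WT, 276 and 325 with GFP and 406 and 492 with RBMXL3. Epithelial keratins were abundant, with 7 members, 2 rises, 1 fall and a summed level between 42510.0 and 56170.0 in the 6 libraries.

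**Figure D3:**
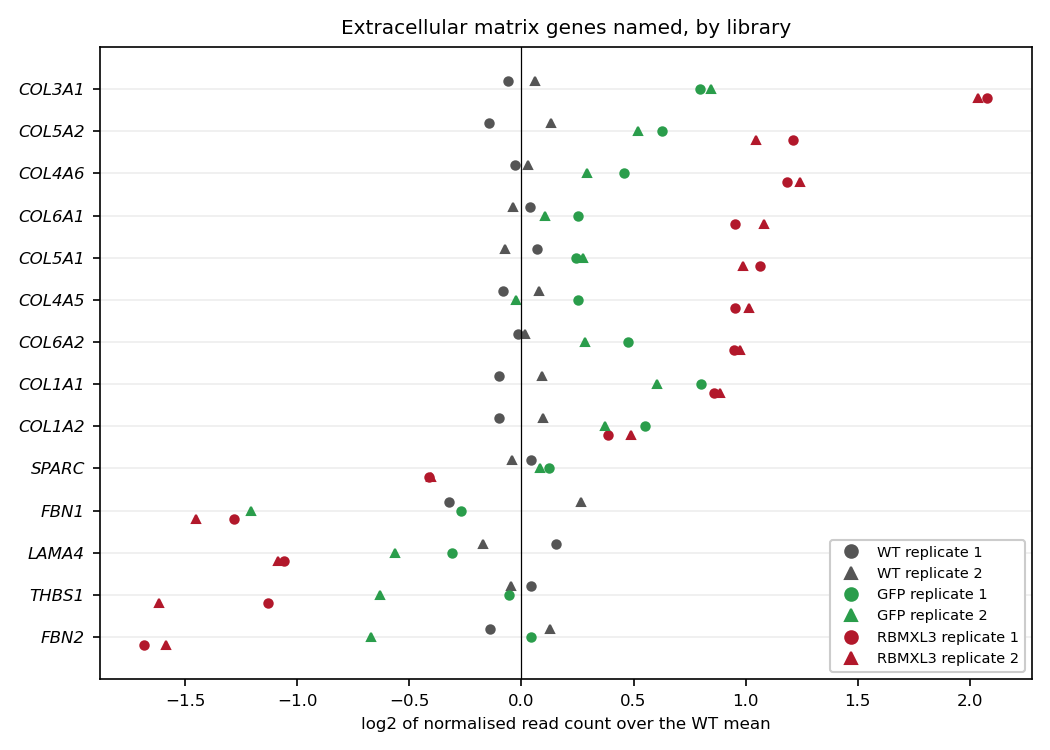
Normalised read counts of the extracellular matrix members named in the text, divided by the WT mean on a log2 axis, with 1 point per library (2 each in WT, GFP and RBMXL3). Collagen chains such as COL3A1 and COL6A1 lie above WT in RBMXL3, COL1A1 and COL1A2 lie above WT in GFP as well, and FBN2, THBS1, LAMA4 and FBN1 lie below WT.

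Receptors of the matrix did not follow its rising collagens. Of 25 genes of integrins and adhesion, 2 rose and 7 fell, with a median of -0.19 that moved to 0.01 under quantile scaling. ITGA5, the fibronectin receptor chain, rose by 0.99 (adjusted p = 1.14e-04) and ITGA7, a laminin receptor chain, by 0.81. ITGB1, the common beta chain of these receptors, had normalised read counts of 22240.0 and 19438 in WT, 18296 and 18190.0 with GFP and 14130.0 and 14019 with RBMXL3. RBMXL3 was lowest and GFP lay just below WT, with a log2 change of -0.56 (adjusted p = 0.00242). ITGA1, a collagen receptor chain, and ITGB5, a vitronectin receptor chain, fell, at -1.16 and -0.66. Targets of YAP and TEAD, factors that respond to adhesion and tension, had 11 falls and 2 rises among 23 members (median -0.23; 11 and 1 without the 2 members kept through 1 group alone), and 4 falls in GFP against WT (median -0.16). AMOTL1, a YAP-binding angiomotin, fell, at -0.84, with GFP at -0.25, and the matricellular genes CCN2 and CCN1 fell, at -0.64 and -0.36, with GFP at -0.48 and -0.50.

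Notch signalling, in which a ligand on one cell releases the receptor's intracellular part to act with RBPJ on HES and HEY genes, had 9 rises and 2 falls among 22 members (median 0.38), and 7 rises and 2 falls with a median of 0.32 without HES1 and HEY1, which were kept through the RBMXL3 libraries alone. GFP against WT called 0 of the 22 in limma, edgeR and DESeq2, with 4 higher and 3 lower at an unadjusted p under 0.05 in limma (median 0.12), and RBMXL3 against GFP called 5 higher and 1 lower. The ligand DLL1 had normalised read counts of 141 and 146 in WT, 138 and 147 with GFP and 258 and 223 with RBMXL3. RBMXL3 stood above WT and GFP, which overlapped, at 0.66 against WT and 0.67 against GFP (adjusted p = 0.00446 and 0.00633). The receptors went opposite ways: NOTCH1 rose by 0.56 and NOTCH2 fell, at -1.03, with 6585 and 7597 in WT, 6509 and 4158 with GFP and 3376 and 3516 with RBMXL3 for NOTCH2. The NOTCH2 values of GFP were spread from just below WT to just above RBMXL3 (GFP against WT -0.44, adjusted p = 0.137). RFNG and LFNG, glycosyltransferases that tune the receptors, rose by 0.81 and 0.62. The target genes HES6, HEY1, HES1 and HES2 rose by between 0.75 and 0.90, and RBPJ fell, at -0.31.

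WNT pathway genes had 6 rises and 3 falls among 28 members (median 0.16), or 4 rises and 3 falls (median 0.13) without the 2 members kept through 1 group alone. NOTUM, a secreted WNT deacylase, had normalised read counts of 61.8 and 52.9 in WT, 84.1 and 91.1 with GFP and 174 and 173 with RBMXL3. RBMXL3 lay above both other groups, at 1.28 against WT (adjusted p = 1.31e-04), while AXIN2, a feedback target of the pathway, fell, at -0.42 (adjusted p = 0.0098). NODAL, BMP and ID genes had 5 rises and 6 falls among 28 (median 0.03). They were led by GDF15 and GDF3 (1.62 and 0.72) and, downward, by FST, the activin-binding follistatin (-1.25).

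The AP-1 family showed 4 rises among 10 members (median 0.32). GFP against WT called 0 of them in limma, edgeR and DESeq2, with 1 higher and 1 lower at an unadjusted p under 0.05 in limma. The rises were FOS and JUNB, described above, ATF3 and the small MAF protein MAFK (0.50). JUN, with 141 and 128 in WT, 87.8 and 95.4 with GFP and 174 and 157 with RBMXL3, was not called against WT at 0.26 (adjusted p = 0.188), but its GFP values were the lowest and RBMXL3 against GFP gave 0.71 (adjusted p = 0.00546). Other immediate early genes had 4 rises and 1 fall among 19 (median 0.11). EGR1, a zinc finger factor of that class, had 2419 and 1966 in WT, 952 and 829.6 with GFP and 2266 and 2440.2 with RBMXL3. It was low in GFP alone, with log2 changes of 0.11 for RBMXL3 and -1.27 for GFP against WT (adjusted p = 0.519 and 0.00107).

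Feedback genes and targets of ERK signalling were divided, 5 up and 5 down among 21 (median -0.09, and 0.01 under equal totals). The transcription factor ETV1 rose by 0.98, while the phosphatase DUSP4 fell, at -1.14, with 197 and 177 in WT, 121 and 144 with GFP and 76.0 and 67.4 with RBMXL3. RBMXL3 was lowest for DUSP4 and GFP lay between (adjusted p = 2.84e-04). Of 17 growth factor and receptor genes 5 rose and 4 fell. KIT, the stem cell factor receptor that seminomas express, had normalised read counts of 2578 and 2403 in WT, 1802 and 1926 with GFP and 1411 and 1429 with RBMXL3. It descended in 3 steps without overlap, with log2 changes of -0.80 for RBMXL3 and -0.41 for GFP against WT and -0.39 for RBMXL3 against GFP (adjusted p = 1.59e-04, 0.0407 and 0.015). VEGFA, the endothelial growth factor, had 267 and 255 in WT, 359 and 326 with GFP and 649 and 649 with RBMXL3. Only RBMXL3 was far above WT, at 1.24 (adjusted p = 3.52e-05), and the receptor FGFR3 rose by 0.84.

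**Figure D4:**
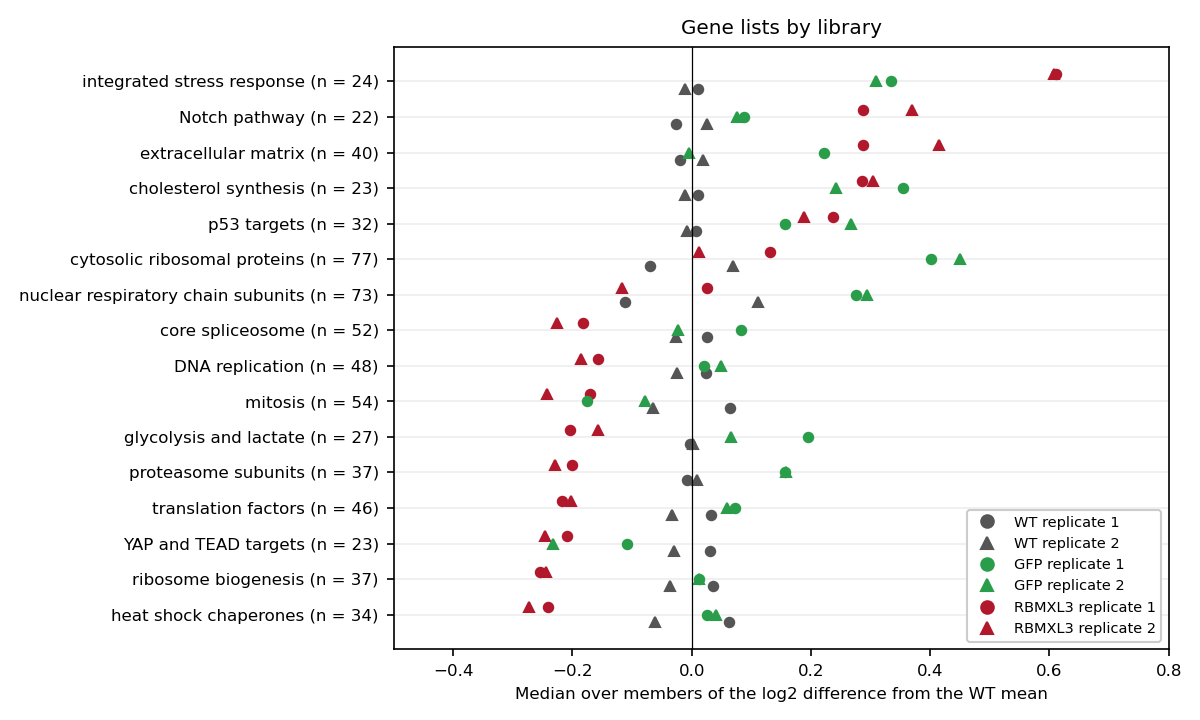
Median over the members of 16 gene lists of the log2(value + 1) difference from the WT mean, with 1 point per library (2 each in WT, GFP and RBMXL3) and the number of members beside each list. The RBMXL3 libraries stand highest for the integrated stress response, at 0.61, and below WT for the lists from the core spliceosome downward, while both GFP libraries stand highest for the cytosolic ribosomal proteins.

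Lipid synthesis leaned upward. Of 23 cholesterol synthesis genes, 11 rose and 1 fell in RBMXL3 against WT (median 0.27), 4 rose in GFP against WT (median 0.26), and 4 rose and 2 fell in RBMXL3 against GFP (median 0.01), so the median of RBMXL3 was matched by that of GFP. Depending on the library left out, between 4 (without RBMXL3 replicate 2) and 14 (without either GFP replicate) rose in RBMXL3 and between 0 (without any RBMXL3 or WT replicate) and 11 (without GFP replicate 2) in GFP. The genes called were only in part the same: 1 of the 11 was also called in GFP. MSMO1, a sterol methyl oxidase, had normalised read counts of 912 and 1043 in WT, 815 and 1398 with GFP and 2145 and 1914 with RBMXL3. RBMXL3 was above all other libraries, and the GFP libraries spread on both sides of WT, at 1.04 against WT and 0.91 against GFP (adjusted p = 0.00167 and 0.00558). EBP, a sterol isomerase, was the reverse, with 649 and 622 in WT, 1069 and 863 with GFP and 565 and 584 with RBMXL3. It was high in GFP alone, with -0.14 for RBMXL3 (adjusted p = 0.403) and 0.58 for GFP against WT (adjusted p = 0.0271). TM7SF2, a sterol reductase, rose alike in both (0.57 and 0.53). The regulator SREBF2 rose by 0.55 and the cholesterol carrier STARD4 by 0.70.

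Fatty acid genes had 7 rises and 3 falls among 20 (median 0.23), or 6 rises and 3 falls (median 0.22) without MLXIPL. In GFP against WT limma and edgeR called 0 and DESeq2 called 2 higher, with 3 higher and 3 lower at an unadjusted p under 0.05 in limma. MLXIPL, the carbohydrate-responsive factor ChREBP, had 38.1 and 26.8 in WT, 43.4 and 27.5 with GFP and 124 and 110.1 with RBMXL3. Its log2 change was 1.33 against WT (adjusted p = 4.13e-04). MLXIPL was kept through the RBMXL3 libraries alone, so a difference from WT was required of it and this p-value adds nothing. The desaturases FADS1, FADS2 and FADS3 rose by 0.62, 0.39 and 0.60, and the elongase ELOVL6 fell, at -0.71.

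Targets of p53 had 12 rises and 0 falls among 32 members (median 0.23), with 0 lower also at an unadjusted p under 0.05 in limma and in edgeR and DESeq2. GFP against WT called 5 of the 32 higher with the same median, and all 5 were among the 12. With 1 library left out the rises numbered between 9 and 17 and the falls 0, and those in GFP dropped to 0 without either WT replicate and went up to 10 without GFP replicate 2. The BH3-only death genes PMAIP1 and BBC3 were high in RBMXL3 alone: PMAIP1 had 1082 and 992 in WT, 894 and 1591 with GFP and 2630.3 and 2711 with RBMXL3. GFP replicate 2 stood above WT and GFP replicate 1 below it, and the log2 changes were 1.35 for RBMXL3 (adjusted p = 4.13e-04) and 0.20 for GFP (adjusted p = 0.558). BBC3 gave 1.09 and 0.24. CDKN1A, the cell cycle inhibitor p21, had 445 and 420.3 in WT, 729 and 756 with GFP and 905 and 880.1 with RBMXL3. Most of its rise was there in GFP, with 1.01 and 0.75 (adjusted p = 7.18e-05 and 0.011). MDM2, a target that encodes a ubiquitin ligase, was not called (0.03, adjusted p = 0.851). In the BCL2 family 7 of 25 rose and 3 fell. The falls included the caspases CASP8 and CASP2, at -0.46 and -0.30.

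Hypoxia targets, at 8 rises and 4 falls among 23 (median 0.15), were split in the same list between VEGFA, the thioredoxin-binding TXNIP (1.32) and STC2 on the rising side and NDRG1, PFKFB3, KDM3A and the glucose transporter SLC2A1 (-0.34) on the falling side. Targets of NF-kB had 6 rises and 1 fall among 18 (median 0.19), led by CD70 and the protease PLAU (1.20). Interferon response genes had 3 of each among 18, with IRF7, an inducer of interferons, highest (1.27). Of 14 genes of MHC class I presentation 5 rose and 2 fell (median 0.13), and HLA-B rose by 0.86 with GFP at 0.51 (adjusted p = 3.53e-04 and 0.0383).

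Genes for making and keeping proteins leaned downward, and here GFP and RBMXL3 parted. Of 46 translation factor genes 3 rose and 15 fell in RBMXL3 against WT (median -0.23), beside 0 calls in limma in GFP against WT (median 0.05). There edgeR called 1 higher, DESeq2 called 2 higher and 2 lower, and limma put 8 higher and 2 lower at an unadjusted p under 0.05. The median in RBMXL3 against WT moved to -0.09 under quantile scaling and -0.12 under equal totals, and leaving out 1 library at a time put it between -0.24 and -0.19. The falls then numbered between 3 (without RBMXL3 replicate 2) and 26 (without either GFP replicate). Other falling medians also shrank under quantile and equal-total scaling, to -0.15 and -0.15 for ribosome biogenesis, -0.12 and -0.11 for proteasome subunits, -0.11 and -0.10 for glycolysis, -0.08 and -0.06 for traffic between the endoplasmic reticulum and Golgi, -0.13 and -0.08 for the core spliceosome, -0.13 and -0.07 for DNA replication, -0.12 and -0.10 for mitosis and -0.15 and -0.12 for YAP and TEAD targets. EIF5, which triggers GTP hydrolysis at the start codon, had normalised read counts of 11133 and 9875 in WT, 6985 and 8795 with GFP and 5568 and 5469.7 with RBMXL3. RBMXL3 was lowest and GFP lay below WT, at -0.92 against WT and -0.50 against GFP (adjusted p = 2.38e-04 and 0.0115). EIF2B2, a subunit of the exchange factor that recharges eIF2, fell, at -0.63, with GFP at -0.01. EIF4EBP1, an inhibitor of cap-dependent initiation, went the other way, with 1775 and 1543 in WT, 2066 and 2408 with GFP and 3582 and 3374 with RBMXL3. It rose by 1.06 against WT and was between the groups in GFP (adjusted p = 6.43e-05). Ribosome biogenesis genes had 1 rise and 13 falls among 37 (median -0.25), and GFP against WT called 0 of them in limma, edgeR and DESeq2 (median -0.00), with 2 higher and 2 lower at an unadjusted p under 0.05 in limma. Most of these 13 falls needed both RBMXL3 replicates to be called. The median in RBMXL3 against WT lay between -0.28 and -0.17 with 1 library left out.

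The cytosolic ribosomal protein genes separated the transduced groups. Of 77 members 10 rose and 4 fell in RBMXL3 against WT (median 0.07), but 24 rose in GFP against WT (median 0.40), and 1 rose and 37 fell in RBMXL3 against GFP (median -0.35). The first of these medians turned to -0.06 without WT replicate 1, the 24 GFP rises dropped to 0 without it and went up to 48 without GFP replicate 2, and the 37 falls dropped to 6 without RBMXL3 replicate 2. RPS4X, a small-subunit protein, had normalised read counts of 25903 and 27893 in WT, 35891 and 32221 with GFP and 22227 and 20092 with RBMXL3. Both GFP libraries were above WT and both RBMXL3 libraries below it, with log2 changes of -0.35 (adjusted p = 0.0391), 0.34 (adjusted p = 0.114) and -0.69 between the transduced groups (adjusted p = 0.00215). The nuclear genes of the respiratory chain gave a like picture, with 9 rises and 12 falls among 73 against WT (median -0.06, but 0.05 under equal totals, 0.05 without WT replicate 2 and 0.03 without RBMXL3 replicate 2), 5 rises in GFP against WT (median 0.27), and 3 rises and 40 falls in RBMXL3 against GFP (median -0.35). NDUFS5, an accessory subunit of complex I, had 4431 and 5536 in WT, 7634 and 5814 with GFP and 3449 and 3115 with RBMXL3. GFP was highest and RBMXL3 lowest, at -0.59 against WT and -1.02 against GFP (adjusted p = 0.00743 and 7.01e-04).

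The mRNAs of the mitochondrial genome had 1 rise and 2 falls among 13 in RBMXL3 against WT (median -0.39). In GFP against WT their median was -0.42 and limma, edgeR and DESeq2 called 0, with 2 lower at an unadjusted p under 0.05 in limma. The GFP libraries disagreed, since their list medians lay at -0.90 in replicate 1 and 0.07 in replicate 2 from the WT mean. Summed over the 13 genes, the normalised read counts were 694400.0 and 516100.0 in WT, 297200.0 and 618000.0 with GFP and 500100.0 and 409600.0 with RBMXL3.

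Proteasome subunits had 2 rises and 12 falls among 37 (median -0.22), while GFP against WT called 1 higher (median 0.19). PSMA5, a subunit of the catalytic core, had 2601 and 2940.5 in WT, 3560.4 and 3702 with GFP and 2120.5 and 1978 with RBMXL3. GFP was above WT and RBMXL3 below it, with -0.43 against WT and -0.82 against GFP (adjusted p = 0.0073 and 4.48e-04). Heat shock chaperones had 3 rises and 12 falls among 34 (median -0.27, but -0.10 under quantile scaling and -0.16 under equal totals; 1 fall without either RBMXL3 replicate or without WT replicate 1), and in GFP against WT 1 rise (median 0.03). Beside HSPA8 the falls took in the mitochondrial chaperonin HSPD1 (-0.48), HSP90AA1 (-0.46) and the chaperonin subunits CCT5, CCT2 and TCP1 (-0.47, -0.45 and -0.48), while the small heat shock protein HSPB8 rose by 0.82. The heat-inducible HSPA1B rose by 0.89, and it has a near-identical neighbour copy, so its count is uncertain.

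Glycolysis genes had 2 rises and 6 falls among 27 (median -0.21). LDHA, the main lactate dehydrogenase chain, had normalised read counts of 15650.0 and 14431 in WT, 14938 and 15290.0 with GFP and 8298 and 8645 with RBMXL3. WT and GFP overlapped and RBMXL3 lay far below both, at -0.83 against WT and -0.83 against GFP (adjusted p = 1.64e-04 and 4.17e-04). SLC16A3, a lactate exporter, rose by 0.72. Of 24 genes of the NRF2 and glutathione defence 5 rose and 7 fell, and the iron store parted, with the ferritin heavy chain FTH1 down at -0.74 and the light chain FTL up by 0.34. Of 39 genes of traffic between the endoplasmic reticulum and Golgi 3 rose and 10 fell (median -0.17), among them GORASP2, a Golgi stacking protein (-0.75), and COPB1 and COPB2, coat subunits (-0.60 and -0.55).

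RBMX takes part in RNA processing, and among genes of that process the core spliceosome leaned downward while other lists were mixed. Of 52 core spliceosome genes 3 rose and 18 fell in RBMXL3 against WT (median -0.19), 1 rose in GFP against WT (median 0.04), and 1 rose and 17 fell in RBMXL3 against GFP (median -0.27). With 1 library left out, the falls against WT numbered between 4 (without RBMXL3 replicate 2) and 26 (without either GFP replicate), and the median lay between -0.25 and -0.18. U2AF1, which recognises the 3′ splice site, had normalised read counts of 1987 and 1660.3 in WT, 1734 and 1594 with GFP and 1033 and 1026 with RBMXL3. RBMXL3 was far below WT and GFP, which overlapped, at -0.81 against WT (adjusted p = 3.41e-04). SNRPG, a protein of the small nuclear ribonucleoprotein core, had 3344 and 4139 in WT, 4499 and 5267 with GFP and 2453 and 1927 with RBMXL3. GFP was above WT and RBMXL3 below it, with -0.77 against WT and -1.15 against GFP (adjusted p = 0.00159 and 3.64e-04). SF3B6, of the complex that binds the branch site, fell, at -0.76, and SF3A2, of the same U2 particle, rose by 0.51.

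Among 46 hnRNP and related genes 7 rose, RBMXL3 itself included, and 15 fell (median -0.15, and 0.00 under quantile scaling), with 0 called in GFP against WT by limma or edgeR and 1 lower by DESeq2 (1 higher and 6 lower at an unadjusted p under 0.05 in limma). HNRNPDL, an AU-rich RNA-binding protein, fell, at -0.60, as did the RNA-binding TAF15 (-0.48) and the abundant HNRNPA2B1 (-0.48), whereas HNRNPA0 rose by 0.50. SR and related splicing factors had 3 rises and 3 falls among 35 (median 0.06). Nonsense-mediated decay and exon junction genes had 0 rises and 6 falls among 22 (median -0.10, and 0.01 under equal totals; 1 higher at an unadjusted p under 0.05 in limma, 0 in edgeR and DESeq2), with MAGOH and EIF4A3 of the exon junction core at -0.51 and -0.35. Of 24 cleavage and polyadenylation genes 4 rose and 5 fell. CPSF3, the endonuclease, and XRN2, a 5′ exonuclease, fell, at -0.61 and -0.47.

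Genes of DNA replication and mitosis leaned downward as well. Of 48 DNA replication genes 3 rose and 13 fell (median -0.18). CCNE2 and CCNE1, the cyclins of entry into S phase, fell, at -0.86 and -0.59, and MCM2, of the replicative helicase, rose by 0.52 with GFP at 0.53. Of 54 mitosis genes 13 fell (median -0.21) and 0 rose, with 1 higher at an unadjusted p under 0.05 in limma and 0 in edgeR and DESeq2, and 5 fell in GFP against WT (median -0.12). ANLN, a scaffold of the cleavage furrow, had 16652 and 13734 in WT, 10768 and 11468 with GFP and 9753 and 9756 with RBMXL3. RBMXL3 was lowest and GFP lay below WT, at log2 changes of -0.63 and -0.44 (adjusted p = 0.0016 and 0.0488). CCNB2, a mitotic cyclin, fell, at -0.60, with GFP at -0.05. Homologous recombination and Fanconi genes had 2 rises and 6 falls among 42 (median -0.05, and 0.06 under equal totals).

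Genes of germ cell identity were called in both directions. Of 21 seminoma and primordial germ cell genes 7 rose and 3 fell (median 0.00), or 6 and 3 without the 1 member kept through 1 group alone, the falls being KIT, PRDM1 (-0.41) and the chemokine receptor CXCR4 (-0.41). GATA3, a transcription factor, rose by 0.85 with GFP at 0.59 (adjusted p = 7.13e-04 and 0.0347). Of 20 pluripotency factors 5 rose and 4 fell (median -0.01, and 0.10 under equal totals): POU5F1 rose by 0.46 (adjusted p = 0.0155) and LIN28A fell, at -0.33 (adjusted p = 0.0412). Of 11 later germ cell and piRNA genes 5 rose and 4 fell, with REC8, a meiotic cohesin, highest (1.18) and TDRD5, a tudor protein of the piRNA pathway, lowest (-0.60). Of 12 embryonal and somatic lineage genes 6 rose and 2 fell (median 0.17), or 4 and 2 (median -0.05) without the 2 members kept through the RBMXL3 or WT libraries alone, and the rises included GATA2, FOXA2 and ISL1 (1.07, 0.99 and 0.99).

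Smaller groups were mixed. Of 19 imprinted genes 6 rose and 3 fell. The paternally expressed DLK1 and the cyclin inhibitor CDKN1C, with 113 and 108 in WT, 147 and 143 with GFP and 246 and 262 with RBMXL3, rose by 1.16 and 1.05. RBMXL3 stood apart from the other 4 libraries for CDKN1C (adjusted p = 2.53e-04). Of 46 Polycomb and histone methylation genes 10 rose and 8 fell (median 0.07), with RBBP7, a histone-binding subunit, down at -0.50. Axon guidance and synapse genes had 8 rises and 10 falls among 38 (median 0.06), or 8 and 9 without the 2 members kept through 1 group alone. The ephrin receptor EPHB2 was up by 1.11 with GFP at 0.82. Of 38 lysosome and autophagy genes 2 rose and 4 fell, of 20 genes of DNA methylation 4 rose and 2 fell, and of 22 small nucleolar RNA host genes 4 rose and 1 fell. Over all genes tested 14.6% were called higher and 15.3% lower. Among RNA classes, 16 of 239 antisense RNA genes rose and 34 fell (6.69% and 14.2%), but whether counting used strand is not given, and without strand such a gene cannot be told apart from its partner. Of 242 lincRNA genes 22 rose and 32 fell.

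Rises and falls also differed in gene length, which the rule for members did not use. Protein-coding members that rose had a median gene length of 19.6 kb, those that fell 52.3 kb, and all 11686 protein-coding members 34.6 kb. With these genes in 5 bins of length, 24.7% rose and 8.85% fell in the shortest bin (up to 11.4 kb), and 7.75% rose and 25.3% fell in the longest (from 102.5 kb). The median log2 change went from 0.12 to -0.14 across the bins in RBMXL3 against WT and from 0.13 to -0.14 in GFP against WT, and it stayed between -0.01 and 0.01 in every bin in RBMXL3 against GFP. The transduced groups share the 2 WT libraries of these comparisons. In TPM summed over the transcripts of a gene the medians ran from 0.17 to -0.09 in RBMXL3 against WT, from 0.00 to -0.19 in GFP against WT and from 0.17 to 0.09 in RBMXL3 against GFP. The part of RNA quality, library preparation or gene function in this trend was not tested.

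**Figure D5:**
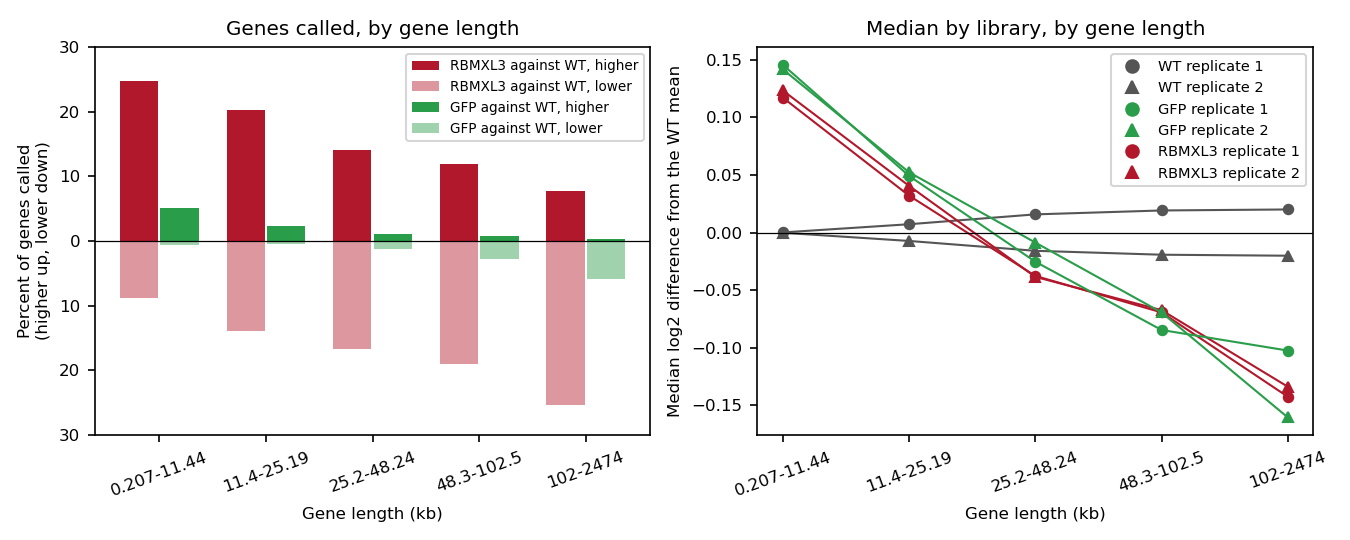
Protein-coding members in 5 bins of gene length in kb. The bars (left) give the percentage called higher (upward) and lower (downward) in RBMXL3 and in GFP against WT, and the lines (right) give the median log2(value + 1) difference from the WT mean in each of the 6 libraries. The share of rises in RBMXL3 goes from 24.7% in the shortest bin to 7.75% in the longest, and the medians of all 4 transduced libraries descend together.

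By chromosome, 28.6% of the protein-coding members on chromosome 19 rose and 15.6% fell, and 24.5% rose and 6.6% fell on chromosome 22. Over all protein-coding members 15.7% rose and 16.8% fell. The balance was the other way round on chromosome 13, with 5.24% and 23.0%, and on chromosome 2, with 10.5% and 23.6%. In the 250 bases upstream of the start, the AP-1 letters TGANTCA were found in 2.85% of the 1439 rising genes with a promoter in the table and 3.91% of the 1663 falling ones, beside 3.35% of all member promoters, and the cyclic AMP response element TGACGTCA in 2.29% and 3.07%, beside 2.99%. CCAAT boxes were in 36% and 37.2%, beside 35.6%, and TATA boxes in 4.86% and 5.41%, beside 4.79%.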

How the data were processed

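RNA-seq of 6 TCam-2 libraries was analysed, 2 each of RBMXL3, GFP and WT. The submitters' processing notes name Trim Galore 0.6.10, STAR 2.7.11a, Salmon 1.10.2, DESeq2 and GRCh38, without saying what each was used for. The counter, the annotation and the strand setting are not given in the sources used here. The gene table the authors deposited is headed as CPM, but its columns sum to between 22481146 and 24822754. The values of this deposited signal are read counts that the authors normalised, as the values themselves show: each is a whole number of reads times 1 factor per library, and all 145320 values above 0 came out whole within 0.001 reads. The design had allowed for true CPM, so the values were divided by 23.9, which brings the mean column total to that of CPM. The deposited transcript table holds TPM of 251955 transcripts, of which 80.0% matched a gene of GENCODE 29, and TPM keeps no depth.

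Differences were fitted with limma 3.58.1 (R 4.3.3, intensity trend) on log2(value + 1) over all 6 libraries with 1 coefficient per group, two-sided, for genes with a rescaled value of at least 1 (23.9 as deposited) in at least 2 libraries. Library size did not enter the test, and the shallower RBMXL3 libraries (17685680 and 21023355 reads) have the larger counting error. Floors of 3 reads cover counting error only. Coordinates of 58207 genes, 12464 of them members, came from GENCODE 29 (GRCh38), and 9859 member symbols matched a RefSeq promoter. In data simulated for RBMXL3 against WT with 14152 genes, the fit recovered 94.9% of the changes of size 1 (log2) and 21% of those of size 0.5, with 8 false calls. The simulation gave every gene the same dispersion and changed only 100 genes of each size, in RBMXL3 alone. The real genes differ in spread and far more were called, so these rates do not carry over to the data.

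The members and gene lists were chosen with earlier results of these data known. Genes are named by rule: RBMXL3; the 12 largest called rises and falls of protein-coding members with a higher group mean of at least 200, RBMXL3 libraries outside the WT values and under 20% of exon length shared; up to 3 called rises and falls per list and its defining members; the 6 largest changes in GFP called alike in both; those called in opposite ways; and the 6 largest with GFP within 0.1 of WT. Those with GFP within 0.1 of WT also had to be called in RBMXL3 against GFP. Genes outside the rule (BBC3, MDM2 and the like) were named after their values were seen. Alternatives were edgeR 4.0.16 and DESeq2 1.42.0 on the recovered read counts (whole numbers rebuilt from the deposited values), other scalings, filters and pseudocounts, summed TPM, a replicate block and each library left out. Isoforms and splicing were not analysed here, and results for some genes are not reported here.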

Additional observations from a re-analysis of the deposited data

Results flagged for a closer look

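In 5 members RBMXL3 and GFP were called in opposite directions against WT (limma, adjusted over all genes tested, n = 2 libraries a group). RBMXL3 against GFP is the difference of these changes in the same fit. Its calls in the 5 genes therefore follow from the choice and add no support. The genes are given as values, and their cause was not tested. The sharpest were genes of the metallothioneins, small proteins that bind zinc and copper. MT1E had normalised read counts of 467 and 461 in WT, 1015 and 938 with GFP and 351 and 359 with RBMXL3. GFP stood above WT and RBMXL3 below it without overlap, and the log2 changes were -0.36 for RBMXL3 against WT, 1.03 for GFP against WT and -1.40 for RBMXL3 against GFP (adjusted p = 0.0264, 0.00207 and 2.10e-05). MT1G had 552 and 489.9 in WT, 922 and 871 with GFP and 246 and 315 with RBMXL3, with the same order of the groups and log2 changes of -0.85, 0.76 and -1.60 (adjusted p = 7.81e-04, 0.0155 and 3.19e-05). MT1F had 908 and 873 in WT, 1256 and 1178 with GFP and 604 and 534 with RBMXL3, again in that order, and gave -0.63, 0.44 and -1.07 (adjusted p = 0.00136, 0.0449 and 1.62e-04). The metallothionein genes are near-identical copies, so reads may have been split between them and each single count is uncertain. Their relative MT2A, with 1105 and 862 in WT, 1261 and 1302 with GFP and 672 and 663 with RBMXL3, had the same order of group means, but its GFP change missed the threshold (-0.53, 0.38 and -0.92, the second with an adjusted p of 0.0918). MT1X, another relative, had 84.7 and 88.9 in WT, 98.9 and 144 with GFP and 103 and 90.9 with RBMXL3, so RBMXL3 was not below WT, and it was called in none of the 3 comparisons (0.13, 0.38 and -0.25; adjusted p = 0.614, 0.222 and 0.326).

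POLR2H, a subunit shared by the nuclear RNA polymerases, had normalised read counts of 1321 and 1581 in WT, 2141 and 1972 with GFP and 1145 and 1122 with RBMXL3. GFP was highest and RBMXL3 lowest, with log2 changes of -0.34 for RBMXL3 against WT, 0.50 for GFP against WT and -0.85 between the transduced groups (adjusted p = 0.0317, 0.0331 and 5.91e-04). OSBPL8, a lipid transfer protein related to the oxysterol-binding protein, was the one of the 5 that was higher in RBMXL3 than in WT, with 1374 and 1336 in WT, 992 and 1034 with GFP and 1876 and 1975 with RBMXL3. Its log2 changes were 0.50, -0.41 and 0.91 (adjusted p = 0.00268, 0.0409 and 1.97e-04), and its rise in RBMXL3 was not seen in TPM summed over transcripts, which gave -0.10 against WT.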

How the results depend on the processing

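As reported, 1920 members rose and 2086 fell in RBMXL3 against WT, 237 and 269 in GFP against WT, and 1433 and 1405 in RBMXL3 against GFP, and 318 were called the same way in both comparisons with WT. All 7 counts stayed within 1.5 times under pseudocounts of 0.1 and 5, robust moderation, edgeR, DESeq2, TMM factors, a mean of at least 5 to enter the test, protein-coding genes alone, stricter minimums for members, and reads thinned to the lowest total (chosen after seeing the data). Of the 4006 calls against WT, edgeR made 3842 (95.9%) in the same direction, DESeq2 3414 and TMM factors 3901. The other alternatives moved a count further, and except where stated the cause was not tested. RBMXL3 and WT alone gave 2681 rises and 3152 falls. Equal column totals gave 2755 and 1225, then 128 rises for GFP against WT, 2371 and 735 for RBMXL3 against GFP, and 206 called alike. Quantile scaling gave 150 falls in GFP against WT and otherwise moved none of the 7. Without the intensity trend, GFP against WT had 65 and 54, with 96 alike. Without a filter on low values, RBMXL3 against WT had 918 and 1007, GFP against WT 0 and 0 (limma; 1295 and 1403 at an unadjusted p under 0.05), RBMXL3 against GFP 400 and 395, with 0 alike. Summed TPM gave 888 and 598, 0 and 0 (416 and 1549 unadjusted), 701 and 176, with 0 alike. Fewer genes are counted by construction without those that share exon sequence (990 and 1094, 133 and 153, 756 and 734, 187 alike) and at an absolute log2 change of at least 1 (176 and 84, 12 and 6, 88 and 39, 11 alike).

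Leaving out each library in turn gave 734 to 2683 rises and 608 to 3156 falls in RBMXL3 against WT, 0 to 1245 and 0 to 1486 in GFP against WT, 357 to 2010 and 263 to 2153 in RBMXL3 against GFP, and 0 to 1272 alike. In these fits the lone sample of a group is assumed to vary like the other groups. The zeros came without WT replicate 1, where limma put 799 higher and 928 lower at an unadjusted p under 0.05. The highest values came without GFP replicate 2 and the lowest against WT and GFP for RBMXL3 without RBMXL3 replicate 2.

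Groups share replicate numbers in the labels. The correlation of the deviations of same-numbered libraries was 0.03 for WT and RBMXL3, -0.16 for WT and GFP and -0.09 for RBMXL3 and GFP. With 2 libraries a group these values cannot show whether same-numbered libraries were handled together, and the labels do not say. With the replicate block, 1696 and 1748, 81 and 105, and 1162 and 1091 were called, with 127 alike. With the GFP numbers crossed (chosen after seeing the data) the counts were 2174 and 2385, 476 and 537, and 1737 and 1671, with 593 alike.

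Of the list medians of RBMXL3 against WT that lay farther from 0 than their spread between replicates (1 SD), these changed sign by more than that spread. Under equal totals ERK targets stood at 0.011, KIT and growth factor receptors at 0.037, unfolded protein response at 0.051, NRF2 at 0.087, homologous recombination at 0.058, nonsense-mediated decay at 0.0093, lysosome at 0.012 and imprinted genes at 0.050. Under quantile scaling growth factor receptors stood at 0.050, unfolded protein response at 0.0062, NRF2 at 0.056, hnRNP genes at 0.0039, integrins at 0.014, tubulins at 0.023 and imprinted genes at 0.0035. In summed TPM ERK targets stood at 0.014, unfolded protein response at 0.0045, NRF2 at 0.050, homologous recombination at 0.017, SR factors at -0.049, lysosome at 0.00023 and imprinted genes at 0.303. With each library left out, growth factor receptors ran from -0.071 to 0.044 (above 0 without WT replicate 1), imprinted genes from -0.057 to 0.076 (above 0 without RBMXL3 replicate 2, at 0.012, and without WT replicate 2) and keratins from -0.0085 (without WT replicate 2) to 0.084. Medians nearer to 0 changed sign too: pluripotency factors (-0.010) stood at 0.098 under equal totals, 0.084 under quantile scaling, 0.067 in summed TPM and 0.072 without WT replicate 1, and tRNA synthetases (-0.017) at 0.092, 0.105, 0.090 and 0.048. Serine and nucleotide genes (-0.041) stood at 0.067, 0.034 and 0.129 under the first 3 of these, and respiratory chain genes (-0.056) at 0.052 under equal totals. Ribosomal proteins (0.072) stood at -0.058 without WT replicate 1 and seminoma genes (0.0019) at -0.065 without WT replicate 2. Among named genes tested in summed TPM the sign changed there for OSBPL8 (-0.10), NUDT21 (-0.16), EBP (0.17), JUN (-0.074) and MDM2 (-0.084), and without WT replicate 2 for EGR1 (-0.040, and up to 0.26 without WT replicate 1) and MDM2 (-0.011, and up to 0.069). Of these, OSBPL8 and NUDT21 had been called against WT. BEST1, also called, was too low in TPM to be tested and was not lower there. The changes of AXIN2 (-0.073), COL1A2 (0.027), LIN28A (-0.087), MZT1 (0.216), RPS4X (-0.109), TCP1 (-0.104) and ZNRF2 (0.082) were far smaller in TPM than in the counts.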
